A study of Homo sapiens with 48 samples.

Results

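A set of 10 genes for amino acid transporters of the plasma membrane was examined in SW480 cells, an APC-mutant human colorectal cancer line, after knockdown of a subunit of eIF2B. The members were taken by gene symbol, namely SLC7A11, SLC7A5, SLC3A2, SLC1A5, SLC1A4, SLC38A1, SLC38A2, SLC7A1, SLC6A9 and SLC7A6. They were chosen with earlier results of these data known, so counts of members describe the set and do not test it. All 10 were present in both deposited tables, which hold 11145 genes for ribosome-protected fragments (RPFs) and 11947 for total cytoplasmic RNA. Cells carried a doxycycline (DOX)-inducible shRNA, either non-targeting (shCTRL), against EIF2B1, which encodes eIF2Bα (shEIF2B1), or against EIF2B4, which encodes eIF2Bδ (shEIF2B4). For 5 days they received either DMSO without DOX (-DOX) or DOX at 1 µg/ml (+DOX), and the experiment was run in 4 separate weeks, giving 4 replicates of each of the 6 groups. Each of the 24 lysates gave 1 RPF library and 1 total RNA library, 48 in all. All groups derive from 1 cell line, and each shRNA line carries its own inducible construct. The -DOX and shCTRL cells carry an integrated shRNA cassette as well, so none of the groups is the parental line.

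eIF2B is the guanine nucleotide exchange factor that reloads eIF2 with GTP, and phosphorylated eIF2α inhibits it. When exchange is slow, translation of most mRNAs falls while ATF4, a transcription factor whose mRNA carries upstream reading frames, is translated better. ATF4 binds with C/EBP partners to composite elements and is known to activate genes for amino acid uptake, amino acid synthesis and tRNA charging. Amino acid transporters of proliferating cells form a few functional classes. SLC7A5 (LAT1), SLC7A11 (the light chain of the cystine and glutamate exchanger) and SLC7A6 (y+LAT2) are light chains that pair with the heavy chain SLC3A2 (4F2hc, CD98) at the cell surface. SLC1A5 (ASCT2) and SLC1A4 (ASCT1) are sodium-dependent exchangers of small neutral amino acids, with glutamine carried by the former. SLC38A1 (SNAT1) and SLC38A2 (SNAT2) are sodium-coupled net importers of neutral amino acids, SLC7A1 (CAT1) takes up cationic amino acids, and SLC6A9 (GLYT1) takes up glycine.

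The values were regularized log2 values (rlog), made by the authors for RPFs and total RNA separately. A response is the change on DOX in a knockdown line minus the change on DOX in shCTRL, on that log2 scale. A response of 1 is thus a 2-fold change of the regularized values over what DOX did in the control line. Regularization shrinks low genes towards their mean, so folds given here are of regularized values and not of counts. A gene was called at an adjusted p under 0.1 (limma, Benjamini-Hochberg over all genes of the table). Both knockdowns are measured against the same shCTRL libraries, so their responses are not independent of each other. The targeted genes checked the labels. EIF2B1 RPFs fell by 0.53 (SE 0.132) in its own line, with adjusted p = 0.0109, and its total RNA fell by 0.67 (SE 0.153), with adjusted p = 0.0263, whereas EIF2B4 fell by 0.49 (SE 0.137) in total RNA, with adjusted p = 0.0634. In RPFs of its own line EIF2B4 had a response of -0.48 (SE 0.193), which was not called, with adjusted p = 0.236. Of 9 epithelial markers, EPCAM, KRT8, KRT18, KRT19 and CDX2 were in both tables and KRT20, CDX1, CDH17 and VIL1 were in neither. Leukocyte, fibroblast and endothelial markers, 7 genes in all, were in neither table. The shEIF2B4 RPF libraries lay lower as a whole, with a mean of 7.01 over all genes in both DOX conditions, where the other 4 groups had 7.12 to 7.15.

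The elements bound by C/EBP and ATF4 factors share the core TGATGNAA, read on either strand as TGATGNAA or TTNCATCA, and its matches near the transcription starts are shown because several amino acid transporter genes are textbook targets of this pair of factors. RefSeq start windows (GRCh38.p14, 250 bases before the start and 50 after) were at hand for 9 of the 10 genes, 15 windows in all. SLC7A11 had none. The core was found in 5 of these 15 windows, 1 window each of 5 genes, while 3.62% of all 35116 windows and 1.94% of the 13179 windows of genes in the RPF table held it. Each match is given in a stretch of 30 bases, 5′ to 3′ on the strand of the gene, with the core in capitals, and with ASNS, the asparagine synthetase gene with a well-known element of this kind, below them.
SLC1A4, chr2:64989381-64989410, plus strand: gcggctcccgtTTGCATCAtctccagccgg
SLC7A1, chr13:29595663-29595692, minus strand: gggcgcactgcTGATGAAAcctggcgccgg
SLC38A1, chr12:46266502-46266531, minus strand: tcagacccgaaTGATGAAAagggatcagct
SLC1A5, chr19:46784893-46784922, minus strand: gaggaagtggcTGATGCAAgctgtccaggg
SLC3A2, chr11:62881719-62881748, plus strand: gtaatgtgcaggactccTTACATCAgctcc
ASNS, chr7:97872458-97872487, minus strand: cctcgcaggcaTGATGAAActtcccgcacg
SLC7A1 has a single window, whereas SLC1A4 and SLC38A1 have 2 and SLC1A5 and SLC3A2 have 3, from alternative starts, and in these 4 genes the core is in the window of an internal start and in none of the others. From the start of its own window, the first base of the core lay 7 bases before in SLC1A4, 4 before in SLC38A1, 97 before in SLC1A5 and 68 before in ASNS, and on base 8 of the transcript in SLC7A1 and base 38 in SLC3A2. The windows of SLC6A9, SLC38A2, SLC7A5 and SLC7A6 hold no such letters. A match is a description of the sequence and not a measured binding site.

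RPFs of 4 of the 10 transporters rose after shEIF2B1 and none fell, namely SLC6A9, SLC7A11, SLC1A4 and SLC7A1. Over all genes, 12% were called higher and 15.3% lower in this comparison. All 10 responses were above 0, with a median of 0.25, where 48.6% of all genes were above 0 and their median was -0.01. The 4 that rose belong to 4 different classes of uptake, for glycine, cystine, small neutral and cationic amino acids, and the heavy chain and LAT1 were not among them. In bulk lysates a change in the number of cells that express a gene and a change per cell cannot be told apart. Without the week as a block the 4 responses had the same size and none was called, with adjusted p from 0.309 to 0.621. The share of all genes called in that fit is not given here, so this loss is not read as a result about the 4 genes.

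The RPFs of SLC6A9, the glycine transporter (chr1:43991500-44031467, minus strand, coordinates here and below from GENCODE v29, GRCh38), showed the largest response among the transporters after either knockdown. In shEIF2B1 cells its rlog RPFs were 7.20, 6.67, 7.29 and 6.19 in weeks 1 to 4 without DOX and 8.74, 8.30, 8.89 and 8.49 with DOX. In shCTRL cells they were 7.81, 7.03, 7.18 and 6.27 without DOX and 7.62, 7.52, 8.10 and 7.11 with DOX. The 4 induced shEIF2B1 libraries thus all lay above the other 12, although the week alone moved the uninduced values by more than 1 log2 unit. The response was 1.25 (95% interval 0.80 to 1.70, adjusted p = 0.00102), which is 2.38-fold, and it was above 0 in each of the 4 weeks. After shEIF2B4 the values went from 7.80, 6.94, 6.46 and 6.17 to 8.73, 8.39, 8.63 and 7.87, a response of 1.05 (0.49 to 1.61, adjusted p = 0.0608), and the lowest induced library lay below the highest shCTRL one. This call was lost without week 2, 3 or 4, with responses of 0.98 to 1.11 and adjusted p of 0.275, 0.161 and 0.353. Those fits called 0.691%, 0.592% and 0.386% of all genes, where the full fit called 2.75%.

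SLC7A11 (chr4:138164097-138242349, minus strand) carries cystine into the cell in exchange for glutamate and so feeds glutathione synthesis. Without DOX its rlog RPFs lay between 6.28 and 7.04 in all 12 libraries of the 3 lines. Induction of shEIF2B1 brought them to 8.01, 8.24, 8.19 and 8.28, and shCTRL cells on DOX had 7.13, 7.05, 7.61 and 7.14. The induced shEIF2B1 libraries were close together (8.18 ± 0.12, SD, n = 4) and lay above all 12 libraries they were set against. The response was 0.83 (0.44 to 1.22, adjusted p = 0.00651), and by week it was 0.92, 1.23, 0.20 and 0.97, lowest in week 3, in which the shCTRL +DOX library was high. After shEIF2B4 the induced values were 7.35, 8.07, 8.18 and 8.18, with week 1 well below the others. That response, 0.84 (0.32 to 1.35), was about as large as the one after shEIF2B1 and was not called, with adjusted p = 0.108. It was called without week 1, at 0.95 with adjusted p = 0.00772, with all 24 libraries in a fit (adjusted p = 0.0390) and with libraries centred on their medians (adjusted p = 0.0855). The fit without week 1 called 14.5% of all genes, where the full fit called 2.75%. An antisense gene, SLC7A11-AS1, overlaps SLC7A11 in the annotation, and whether the counting used the strand is not given in the sources used here.

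SLC1A4 (chr2:64988477-65023865, plus strand) exchanges alanine, serine, cysteine and threonine. Its rlog RPFs in shEIF2B1 cells were 9.12, 9.07, 9.33 and 8.90 without DOX and 10.04, 9.79, 10.22 and 9.94 with DOX. In shCTRL cells on DOX they were 9.54, 9.18, 9.79 and 9.38. The lowest induced library and the highest shCTRL +DOX library met at 9.79, and within each week the induced shEIF2B1 library was the higher one. The response was 0.65 (0.37 to 0.93, adjusted p = 0.00394), or 1.57-fold. After shEIF2B4 SLC1A4 had a response of 0.49 (0.11 to 0.88) in RPFs, above 0 in 4 of 4 weeks, which was not called, with adjusted p = 0.196.

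SLC7A1 (chr13:29509410-29595688, minus strand) is the main carrier of arginine and lysine in many cells. Its RPFs moved less than those of the other 3 but with a narrow spread. In shEIF2B1 cells they went from 11.18, 11.05, 11.25 and 10.87 to 11.81, 11.53, 11.79 and 11.42, while shCTRL cells on DOX had 11.54, 11.13, 11.46 and 11.13. Across weeks the groups overlapped, and in every week the induced library was higher than its -DOX and shCTRL +DOX partners. The response was 0.53 (0.29 to 0.76, adjusted p = 0.00518), or 1.44-fold. The shEIF2B4 line gave almost the same value, 0.52 (0.23 to 0.80, adjusted p = 0.0672), from 11.16, 11.05, 10.96 and 10.87 without DOX to 11.87, 11.53, 11.56 and 11.25 with it. Without week 2, 3 or 4 the latter call was lost, with adjusted p of 0.322, 0.290 and 0.373 and responses of 0.51 to 0.57. Those fits called 0.691%, 0.592% and 0.386% of all genes.

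**Figure D1:**
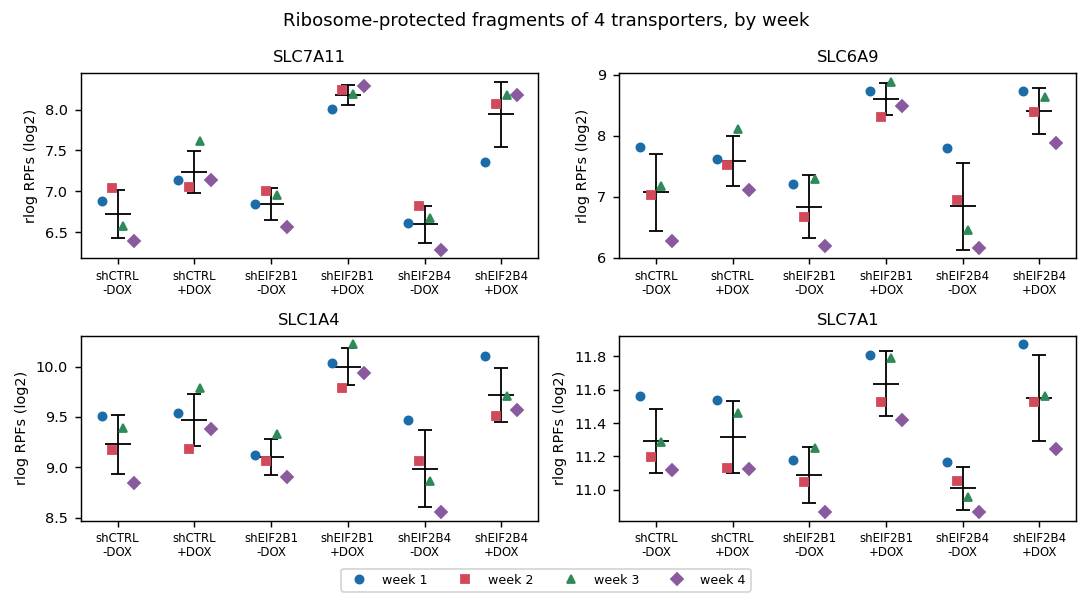
Regularized log2 RPF values (vertical axis) of SLC7A11, SLC6A9, SLC1A4 and SLC7A1 in the 6 groups of line and DOX. Symbols are single libraries by week and black bars the mean ± SD of 4. For SLC7A11 and SLC6A9 the 4 shEIF2B1 +DOX libraries lie above every shCTRL and every -DOX library, and shEIF2B4 +DOX has 1 SLC7A11 library, of week 1, at 7.35 below its 3 others.

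Induced shEIF2B1 libraries above all 12 others of that line and shCTRL were found for 3 members in RPFs (SLC7A11, SLC38A2 and SLC6A9), where 1.48% of all genes showed this, and for 2 in total RNA (SLC1A4 and SLC6A9), where 3.72% did. With shEIF2B4 this held for 0 members in RPFs, where 0.933% of all genes showed it, and for 4 in total RNA (SLC7A11, SLC1A4, SLC38A2 and SLC6A9), where 4.96% did.

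After shEIF2B4, 2 members were called higher in RPFs, SLC6A9 and SLC7A1, and none lower, beside 1.88% of all genes called higher and 0.87% lower. The median over the members was 0.13, and over all genes it was -0.02. Neither the LAT1 pair nor the SNAT genes came near a call, with adjusted p from 0.763 to 0.996 for SLC7A5, SLC3A2, SLC38A1 and SLC38A2.

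In total RNA, 2 members rose after shEIF2B1, SLC6A9 and SLC1A4, where 2.34% of all genes were called higher and 1.13% lower. After shEIF2B4, 4 members rose, SLC7A11, SLC6A9, SLC1A4 and SLC38A2, where 3.78% of all genes were called higher and 1.62% lower. No member was called lower in total RNA after either knockdown. SLC7A1 had a total RNA response of 0.37 (0.13 to 0.61) to shEIF2B1, which was not called, with adjusted p = 0.115, and was called with all 24 libraries in a fit (adjusted p = 0.0776) and with centred libraries (adjusted p = 0.0991). Medians over the members were 0.17 and 0.31, beside -0.0038 and 0.0018 over all genes.

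The total RNA of SLC6A9 was low in level and tight in spread. It was 5.70, 6.02, 6.09 and 5.76 in uninduced and 6.80, 7.18, 7.19 and 7.04 in induced shEIF2B1 cells, and 5.97, 5.93, 5.67 and 5.69 in uninduced and 6.71, 6.91, 7.0 and 6.78 in induced shEIF2B4 cells. The shCTRL libraries reached at most 6.34, so both induced groups lay above all uninduced and control libraries. The responses were 0.84 (0.60 to 1.08, adjusted p = 0.000261) and 0.71 (0.46 to 0.97, adjusted p = 0.00218). SLC6A9 is among the lowest 25% of genes in total RNA, so these values are absent where that share was left out.

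SLC1A4 total RNA rose in both lines. It was 8.25, 8.27, 8.44 and 8.45 in uninduced and 9.0, 9.42, 9.26 and 9.04 in induced shEIF2B1 cells. It was 8.32, 8.47, 8.43 and 8.13 in uninduced and 9.14, 8.92, 9.03 and 8.91 in induced shEIF2B4 cells. No control or uninduced library exceeded 8.86, the shCTRL +DOX library of week 3. The responses were 0.70 (0.40 to 0.99, adjusted p = 0.0107) and 0.53 (0.28 to 0.78, adjusted p = 0.0195). Without week 1 the adjusted p was 0.120 for shEIF2B1 and 0.134 for shEIF2B4, and without week 4 it was 0.155 for shEIF2B4. Those fits called, in that order, 0.929%, 4.15% and 1.82% of all genes.

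SLC7A11 total RNA passed the test after shEIF2B4 and missed it after shEIF2B1. With shEIF2B1 it went from 8.93, 8.79, 8.73 and 8.53 to 9.80, 9.23, 9.93 and 10.05, a response of 0.63 (0.16 to 1.11) that was not called, with adjusted p = 0.181. With shEIF2B4 it went from 8.86, 8.79, 8.05 and 8.33 to 9.45, 9.80, 9.91 and 9.94, a response of 0.90 (0.39 to 1.41, adjusted p = 0.0504). The shCTRL +DOX libraries held 9.12, 8.79, 9.07 and 9.27, so the week 2 library of shEIF2B1 overlapped them and none of shEIF2B4 did. Leaving out week 2, 3 or 4 took the shEIF2B4 call away, with adjusted p of 0.179, 0.164 and 0.134. Those fits called 2.03%, 3.11% and 1.82% of all genes, where the full fit called 5.4%.

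SLC38A2 (SNAT2; chr12:46358189-46372867, minus strand), the sodium-coupled importer known to respond to amino acid shortage, was called in total RNA after shEIF2B4 alone. Its libraries held 12.04, 11.77, 11.05 and 11.62 without DOX and 12.35, 12.43, 12.41 and 12.29 with DOX. The week 3 uninduced library was the lowest of all 24. The response was 0.52 (0.18 to 0.87) with adjusted p = 0.0992, and without week 3 it was 0.35 with adjusted p = 0.234. Without week 2 or 4 the adjusted p was 0.232 and 0.263. The fits without week 2, 3 and 4 called 2.03%, 3.11% and 1.82% of all genes. The call was also lost with no block (adjusted p = 0.219), with no mean-variance trend (0.102), with centred libraries (0.114) and with all 24 libraries in a fit (0.223), so 7 of 10 alternatives ended it. After shEIF2B1 the total RNA response was 0.20 (-0.17 to 0.57, adjusted p = 0.642), with the induced library of week 2 at 11.75 and those of the other weeks at 12.42, 12.61 and 12.59.

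**Figure D2:**
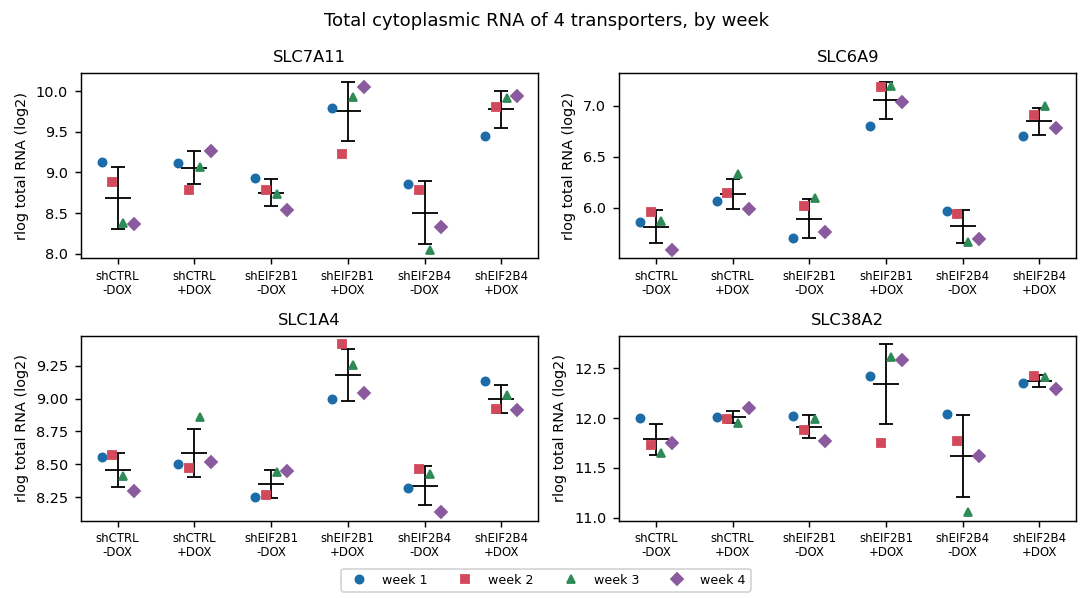
Regularized log2 total cytoplasmic RNA (vertical axis) of SLC7A11, SLC6A9, SLC1A4 and SLC38A2 in the 6 groups. Symbols are single libraries by week and black bars the mean ± SD of 4. The induced libraries of both knockdowns lie above all others for SLC6A9 and SLC1A4, and for SLC38A2 the shEIF2B1 +DOX library of week 2, at 11.75, lies among the uninduced ones.

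The RPFs of SLC38A2 show how much of a change DOX made in the control line. They were 10.51, 10.70, 10.48 and 10.61 in shCTRL -DOX and 10.60, 11.04, 11.31 and 11.26 in shCTRL +DOX. In shEIF2B1 cells they were 10.70, 11.17, 11.17 and 10.97 without DOX and 11.40, 11.76, 11.91 and 11.89 with DOX, above all 12 libraries of that comparison. The line was thus already high before induction, and shCTRL also changed, so the response was 0.26 (-0.04 to 0.56, adjusted p = 0.218). With no correction for shCTRL the change in the shEIF2B1 line was 0.74, with adjusted p = 1.22e-06 in limma.

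With DOX and the non-targeting shRNA, 3 members rose in RPFs, SLC7A11 by 0.51 (SE 0.149, adjusted p = 0.0762), SLC6A9 by 0.51 (SE 0.155, adjusted p = 0.0815) and SLC38A2 by 0.48 (SE 0.118, adjusted p = 0.0516), beside 9.85% of all genes called in either direction. All 3 calls were lost when week 2, 3 or 4 was left out, in fits that called 0.0359%, 0.0269% and 0.0359% of all genes. In total RNA only SLC6A9 was called, at 0.32 (SE 0.0803, adjusted p = 0.0844), beside 4.44% of all genes. Its call was likewise lost without week 2, 3 or 4, in fits that called 1.39%, 0.0251% and 0.1% of all genes. The changes were larger in weeks 3 and 4 than in weeks 1 and 2 for each of the 3 genes in RPFs, for SLC7A11 at 1.04 and 0.75 against 0.25 and 0.01.

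The lines differed before induction as well. In RPFs of shEIF2B1 -DOX against shCTRL -DOX, SLC38A2 was higher by 0.43 (SE 0.0815, adjusted p = 0.00041), and SLC7A5, SLC3A2, SLC7A1 and SLC6A9 were lower, at -0.33, -0.27, -0.20 and -0.23 with adjusted p of 0.00231, 0.0117, 0.0351 and 0.0843. The comparison called 54.1% of all genes, so 5 of 10 members is near the background. The SLC7A1 call was lost without week 1 or 4 and that of SLC6A9 without week 1 or 2. The fits without week 1, 2 and 4 called 48.6%, 42.6% and 45.5% of all genes. In total RNA of the same groups 0 members were called in limma and 1 had an unadjusted p under 0.05, where 1.4% of all genes were called. For shEIF2B4 -DOX no member was called in RPFs, where 13.9% of all genes were, or in total RNA, where 2.32% were. At an unadjusted p under 0.05 there were 1 member in RPFs and 2 in total RNA. Without week 1 the RPF comparison of shEIF2B4 -DOX called 6 members, all lower, namely SLC7A5, SLC3A2, SLC1A5, SLC1A4, SLC7A1 and SLC6A9, from -0.38 to -0.24, in a fit that called 47.6% of all genes, so this count is near its background.

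No change of the LAT1 complex passed the test with either knockdown. SLC7A5 (chr16:87830023-87869488, minus strand) had RPFs of 13.27, 12.74, 13.32 and 12.82 in uninduced and 13.57, 12.89, 13.39 and 12.78 in induced shEIF2B1 cells. Its heavy chain SLC3A2 (chr11:62856102-62888875, plus strand) had 13.77, 13.35, 13.85 and 13.46 without and 13.98, 13.61, 13.88 and 13.52 with induction. The uninduced and induced ranges overlapped in both genes, and within weeks SLC3A2 was higher with DOX in 4 of 4 and SLC7A5 in 3 of 4. The responses were 0.14 (-0.12 to 0.40) and 0.12 (-0.15 to 0.38) in RPFs after shEIF2B1, and -0.06 (-0.44 to 0.32) and -0.0025 (-0.36 to 0.35) after shEIF2B4. In total RNA the 4 responses lay between -0.07 and 0.08. All 8 intervals lay between -0.44 and 0.40, below the estimates, without their intervals, of the RPF responses of SLC6A9, SLC7A11, SLC1A4 and SLC7A1 to shEIF2B1. The intervals of SLC1A4, from 0.37, and SLC7A1, from 0.29, overlapped the shEIF2B1 RPF intervals of SLC7A5 and SLC3A2. Genes were not tested against each other.

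SLC1A5 (chr19:46774883-46788594, minus strand), which brings in glutamine, had the highest ribosome occupancy of the members. Its RPF responses were 0.25 (-0.04 to 0.53, adjusted p = 0.213) and 0.16 (-0.22 to 0.54, adjusted p = 0.702), and in total RNA they were 0.12 and -0.13, none of them called. SLC38A1 (chr12:46183063-46270017, minus strand) had RPF responses of 0.18 and 0.10 and total RNA responses of 0.14 and 0.34, the last with an interval of 0.06 to 0.62 and adjusted p = 0.186. SLC7A6 (chr16:68264516-68301823, plus strand), an exchanger of arginine for neutral amino acids, gave RPF responses of 0.23 and 0.05 and RNA responses of 0.02 and -0.01, without a call.

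RPFs of most members followed the week of the experiment. SLC7A5, SLC3A2 and SLC7A6 had both libraries of weeks 1 and 3 above both of weeks 2 and 4 in 6 of 6 groups, and SLC1A5, SLC1A4, SLC7A1 and SLC6A9 in 5 of 6. SLC38A1 went the other way in 4 of 6 groups and was lowest in week 1 in 5. In total RNA the first pattern was seen in at most 2 of 6 groups for any member. In shEIF2B4 -DOX, for example, SLC7A5 stood at 13.97 in week 1 and at 12.85 in week 2. The week enters each fit as a block, and its relation to the libraries' preparation was not tested.

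**Figure D3:**
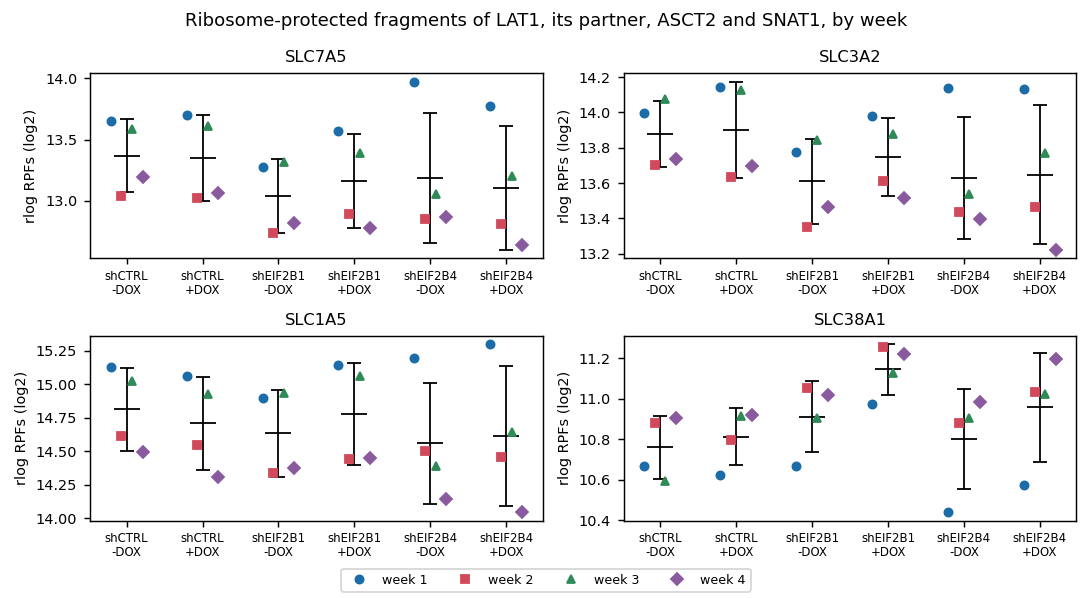
Regularized log2 RPF values (vertical axis) of SLC7A5 (LAT1), SLC3A2, SLC1A5 (ASCT2) and SLC38A1 (SNAT1) in the 6 groups, with single libraries by week and black bars for the mean ± SD of 4. SLC7A5 and SLC3A2 are higher in weeks 1 and 3 than in weeks 2 and 4 in all 6 groups, and SLC38A1 is lowest in week 1 in 5 of them.

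Translational efficiency (TE), the log2 RPF value less the log2 RNA value of a lysate, did not pass the test for any member after either knockdown. RPFs and total RNA were regularized separately, so their shrinkage can differ within TE, which was not tested. Of all genes, 7.1% were called for shEIF2B1 and 0.0923% for shEIF2B4. At an unadjusted p under 0.05 there was 1 member after shEIF2B1, SLC6A9 with a TE response of 0.41 (0.02 to 0.79, adjusted p = 0.218 in limma), and 0 after shEIF2B4. The TE of SLC6A9 went from 1.5, 0.65, 1.20 and 0.43 to 1.94, 1.12, 1.69 and 1.45 in shEIF2B1 cells, with a difference to shCTRL above 0 in 4 of 4 weeks. For SLC7A11 the TE responses were 0.19 (-0.19 to 0.58) and -0.06 (-0.43 to 0.30), for SLC1A4 -0.05 (-0.37 to 0.28) and -0.04 (-0.39 to 0.30), and for SLC7A1 0.15 (-0.13 to 0.44) and 0.23 (-0.09 to 0.56). SLC1A4, whose RPFs and total RNA both rose after shEIF2B1, did so by 0.65 and 0.70. SLC38A2 after shEIF2B4 had a TE response of -0.42 (-0.85 to 0.02, adjusted p = 0.305). By week it was 0.02, -0.13, -1.31 and -0.24, and week 3 is the one in which the uninduced total RNA was at 11.05. Without week 3 this response was -0.12, with adjusted p = 0.908, and without week 1 it was -0.56 and was called, with adjusted p = 0.0923. The fit without week 1 called 13.1% of all genes, and the fit without week 3 called 0%.

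The responses to the 2 knockdowns were compared directly in a fit of all 24 lysates. No member differed between them in RPFs, total RNA or TE, where 0.00897%, 0.1% and 0% of all genes were called. At an unadjusted p under 0.05 there were 0, 0 and 1 member, the last SLC38A2 with a TE difference of 0.47 (0.03 to 0.92, adjusted p = 0.800 in limma). For SLC7A11 the difference of shEIF2B1 minus shEIF2B4 was -0.01 in RPFs (-0.46 to 0.44) and -0.27 at the RNA level (-0.80 to 0.27). For SLC6A9 it was 0.20 (-0.35 to 0.76) and 0.13 (-0.13 to 0.39), and for SLC7A1 0.01 (-0.25 to 0.26) and 0.09 (-0.15 to 0.32). Calls that were made for 1 knockdown only, such as SLC38A2 in total RNA, are therefore not shown to be particular to it. The intervals are wide enough to hold differences of 0.4 or more in SLC7A11 and SLC6A9 RPFs, so these data do not show that the knockdowns act alike.

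**Figure D4:**
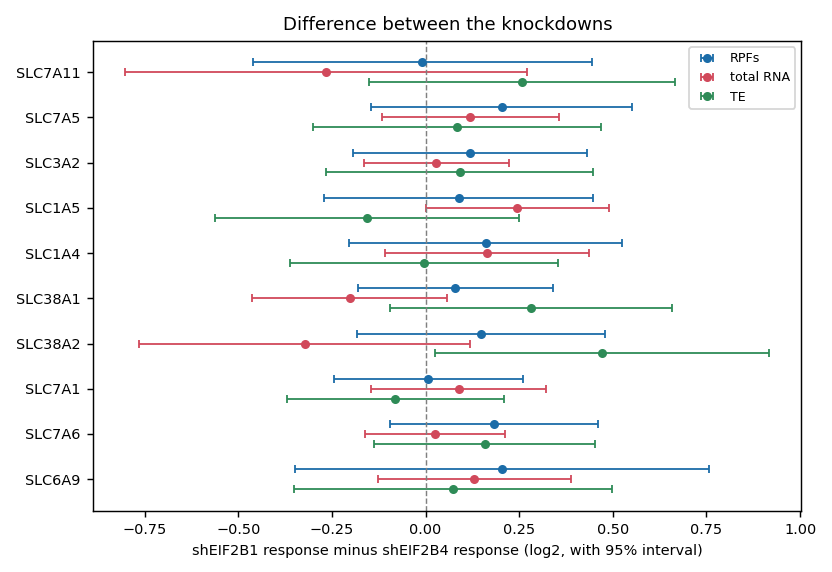
Difference between the knockdowns, shEIF2B1 response minus shEIF2B4 response (horizontal axis, log2), for each transporter in RPFs, total RNA and TE, with 95% intervals from limma over 24 libraries or lysates. No value passed adjusted p under 0.1, and the TE interval of SLC38A2, from 0.03 to 0.92, is the one that lies wholly above 0.

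Levels were set against each other per kilobase, using coding lengths for RPFs and transcript lengths for total RNA from GENCODE v29, in which the transcript of 9 of the 10 members was found. SLC3A2 was not among them. In shCTRL -DOX the rlog RPFs, less the log2 of the coding length in kilobases, ran from 14.11 for SLC1A5 and 12.76 for SLC7A5 through 10.38 for SLC7A1, 10.21 for SLC38A1, 9.97 for SLC38A2, 8.55 for SLC1A4 and 7.95 for SLC7A6 to 6.15 for SLC6A9 and 6.14 for SLC7A11. SLC7A1 and SLC38A1 lay within their spread of each other (SD 0.192 and 0.156, n = 4), and so did SLC6A9 and SLC7A11 (SD 0.634 and 0.292). The glutamine carrier and LAT1 were at percentiles 99.5 and 98.2 of all genes on this scale, and SLC7A11 and SLC6A9 at 43.3 and 43.5. On the total RNA scale, per kilobase of transcript, SLC1A5 was highest with 11.36, SLC38A2 with 9.50 came before SLC38A1 with 9.13 and SLC7A5 with 8.60, and SLC7A11 and SLC6A9 were lowest with 5.42 and 4.17. SLC7A11 and SLC6A9, the lowest in RPFs per kilobase, and SLC1A4 were called in RPFs after shEIF2B1. SLC1A5 and SLC7A5, the highest, were called in RPFs after neither knockdown, nor were SLC38A1 and SLC38A2. Level did not separate the members called in RPFs fully. SLC7A1, the third highest, was called in RPFs after both knockdowns and SLC7A6, the third lowest, after neither. A relation of level to response was not tested.

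The coding sequences of the 9 matched members were low in G and A. Their content of G and A was 43.50% (SLC7A6) to 49.62% (SLC1A4), while the median over 10838 genes of the RPF table with a matched coding sequence was 52.59%. The 9 matched members lay between percentiles 1.27 and 20.6 of those genes, with SLC7A6, SLC6A9 and SLC7A5 at 1.27, 2.01 and 2.48. They were not set against other genes for membrane proteins, so low G and A is not shown to be particular to this set. GC content, in contrast, spread widely, from 40.51% in SLC38A2 and 41.41% in SLC38A1 to 62.66% in SLC7A5 and 63.09% in SLC1A5, around a median of 52.52%. The 4 members whose RPFs rose covered 45.38% to 58.82% GC. Upstream ATG triplets in the leader were found in 6 of the 9, with 7 in SLC38A1, 4 in SLC7A6, 2 each in SLC7A11 and SLC6A9 and 1 each in SLC38A2 and SLC7A1, beside 47.3% of all matched genes with at least 1. Among the 4 with a risen RPF, SLC1A4 had none. Leaders are those of GENCODE v29. The transcript version there was that used by the authors for 3380 of the 11145 genes and, among the members, for SLC7A11 and SLC1A5 alone.

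Genes with the most similar RPF pattern were looked up for the cystine exchanger and the LAT1 pair, as Pearson's r over the 24 RPF libraries after the mean of each week was removed. The libraries share weeks and lines, so r is a description only. For SLC7A11 they were ASNS (r = 0.971), NIBAN1 (0.970) and WARS1 (0.953), and the nearest member was SLC6A9 (0.933, rank 22 of all genes). For SLC7A5 they were FGFR4 (0.949), SLC16A3 (0.945) and SPNS1 (0.937), with SLC3A2 at rank 5 (0.927). For SLC3A2 they were LMAN2 (0.942), IGFBP2 (0.937) and COLGALT1 (0.934), with SLC7A5 at rank 4. In total RNA, treated in the same way, the r of SLC7A5 with SLC3A2 was 0.16, so their likeness in RPFs was not seen there. Among the 45 pairs of members, the closest were SLC1A4 with SLC6A9 (0.949), and the most opposed were SLC7A5 with SLC38A1 (-0.55).

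Other amino acid transporters were described from a list of 53 genes, of which 29 were in both tables. In RPFs after shEIF2B1, 7 were higher and 2 lower, where 12% of all genes were called higher and 15.3% lower. MFSD12, which brings cysteine into lysosomes, had the largest response, 1.10 (SE 0.119, adjusted p = 7.61e-06), followed by SLC43A1 (LAT3), with 0.83 (SE 0.114, adjusted p = 0.000107), SLC43A2 (LAT4) with 0.53 and SLC38A10 with 0.44. The lower ones were SFXN1, a mitochondrial serine carrier, at -0.46 (adjusted p = 0.0234), and SLC25A13, the mitochondrial aspartate and glutamate carrier citrin, at -0.44 (adjusted p = 0.0877). In total RNA after shEIF2B1 MFSD12 and SLC43A1 were called higher, at 0.78 and 0.50, and the glutamate transporter SLC1A3 lower, at -0.41. Over all genes 2.34% were called higher and 1.13% lower there. After shEIF2B4 MFSD12 was the only one called in RPFs, at 0.87 (adjusted p = 0.0173), and SLC1A3 and SLC1A2 were lower in total RNA, at -0.49 and -0.47. Of all genes, 1.88% were called higher and 0.87% lower in RPFs, and 3.78% and 1.62% in total RNA. The median of the 29 in RPFs was 0.17 after shEIF2B1 and 0.02 after shEIF2B4. In TE limma called none after either knockdown, beside 7.1% and 0.0923% of all genes, and unadjusted p-values under 0.05 numbered 4 and 5.

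Of 19 genes that control amino acid uptake or use the imported amino acids, 18 were in both tables. After shEIF2B1, 6 were higher and 1 lower in RPFs, with a list median of 0.11, beside 12% of all genes higher and 15.3% lower. ATF4 rose by 1.02 (SE 0.149, adjusted p = 0.000223), its partner CEBPB by 0.97, SESN2, a sensor that inhibits mTORC1 when leucine is scarce, by 1.19, CHAC1, which degrades glutathione, by 0.93, and ASNS by 0.84. In TE ATF4 rose by 0.83 (adjusted p = 0.0323) and CEBPB by 0.48 (adjusted p = 0.0995), whereas the leucyl-tRNA synthetase LARS1 fell by 0.46. After shEIF2B4, 5 were higher in RPFs and none lower, SESN2 by 1.46, CHAC1 by 1.20, CEBPB by 1.05, ASNS by 0.95 and ATF4 by 0.76. None was called in TE by limma, with 7 at an unadjusted p under 0.05. Over all genes, 1.88% were called higher and 0.87% lower in these RPFs, and 0.0923% were called in TE. In total RNA ASNS, CHAC1, SESN2, CEBPG and CEBPB were called higher after shEIF2B1, at 0.48 to 0.83, beside 2.34% of all genes. After shEIF2B4, against the same shCTRL libraries, these genes had 0.50 to 1.29 and were called, beside 3.78% of all genes called higher. ASNS also rose on DOX in shCTRL, by 0.85 in RPFs (adjusted p = 0.0217) and 0.64 in total RNA (adjusted p = 0.0144), as SLC7A11, SLC6A9 and SLC38A2 did in RPFs.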

How the data were processed

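Ribo-seq and total cytoplasmic RNA-seq were made from 24 lysates of SW480 cells, 48 libraries. The authors removed duplicate reads, used bowtie2 to align total RNA to protein-coding transcripts of GENCODE v38, estimated isoforms by RSEM and took the dominant isoform per gene. RPF reads, cleared of rRNA, tRNA and mitochondrial RNA, were counted on the coding sequence. Replicate 3 joins reads of 2 sequencing runs. What the authors deposited is log2, regularized by DESeq2, which shrinks low genes towards their mean. No counts were used, so depth is unknown and no counting error can be given.

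Groups and replicate numbers were taken from the labels. Responses, that is the product of shRNA and DOX, were fitted with limma 3.58.1 in R 4.3.3 (lmFit, eBayes with a mean-variance trend, two-sided) to the 16 libraries of a knockdown line and shCTRL, with the replicate as a block, and called at adjusted p under 0.1. Differences between knockdowns used all 24. The design text of the series places the replicates in separate weeks. After group means were removed, 52 of 60 same-week pairs of RPF libraries correlated over 0.1, as did 37 of 60 in total RNA and 55 of 60 in TE.

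Positions, coding lengths and composition come from GENCODE v29, matched by transcript ID without version for 97.2% of genes of the RPF table. Start windows come from RefSeq. The fit was tested on simulated data. All 10 members, the called genes of 2 lists (up to 8 each by size) and the 3 genes nearest to SLC7A11, SLC7A5 and SLC3A2 were named, except that 1 called gene of a list is not reported here. The members and lists were chosen with earlier results of these data known. Alternatives were a threshold of 0.05, no block, no trend, the lowest 25% of genes left out, centred libraries, all 24 libraries in a fit, no shCTRL correction and each week left out.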

Additional observations from a re-analysis of the deposited data

Results flagged for a closer look

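In 3 of 120 groups of 4 values (10 transporters, 6 groups, RPFs and total RNA), 1 library lay so far from its group that its gap to the nearest other library took up most of the range of the group, by a criterion that chance meets in about 1 of 20 groups. The rlog RPFs of SLC7A11 in shCTRL +DOX were 7.61 in week 3, beside 7.05 to 7.14 in the other weeks. In shEIF2B4 +DOX SLC7A11 RPFs were 7.35 in week 1, beside 8.07 to 8.18. SLC1A4 total RNA in shCTRL +DOX was 8.86 in week 3, beside 8.47 to 8.51. Of these libraries, those of shCTRL +DOX are from replicate 3, whose reads were joined from 2 runs, and the part of this in the values was not tested.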

How the results depend on the processing

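Counts of members called kept within 1.5 times under most alternatives, and no called response changed sign. Without the replicate block 0 members were called in RPFs after shEIF2B1, after shEIF2B4, in shCTRL on DOX and between the uninduced shEIF2B1 and shCTRL lines, and 0 in total RNA of shCTRL on DOX. At adjusted p under 0.05 there were 0 in RPFs and 2 in total RNA after shEIF2B4, and 0 in RPFs and 0 in total RNA of shCTRL on DOX. With no shCTRL correction 5 members were called in total RNA after shEIF2B1, 5 in RPFs after shEIF2B4, and 1 each in TE after shEIF2B1 and shEIF2B4. With the lowest 25% of genes left out, which removes SLC6A9 from total RNA, 1 was called in total RNA after shEIF2B1 and 0 in shCTRL on DOX. With libraries centred on their medians 8 were called between uninduced shEIF2B1 and shCTRL in RPFs, a comparison whose main fit called 54.1% of all genes. Shares of all genes under the alternatives of this paragraph are not given here, so its counts are not read as results about the members.

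When 1 week was left out, the members called after shEIF2B1 were 4 in each case in RPFs, beside 13.7% to 24.4% of all genes. In total RNA they were 1 to 2, beside 0.929% to 5.4%. After shEIF2B4 they were 0 to 3 in RPFs, 1 to 3 in total RNA and 0 to 1 in TE. The shares of all genes called there were 0.386% to 14.5%, 1.82% to 4.15% and 0% to 13.1%. In shCTRL on DOX the range was 0 to 4 for RPFs, beside 0.0269% to 31.6% of all genes. For total RNA it was 0 to 3, beside 0.0251% to 20.5%. The range was 0 to 6 for RPFs of uninduced shEIF2B4 against shCTRL, beside 0% to 47.6%. For all of these but the shEIF2B1 responses, the highest count came without week 1, the fit that called the largest share of all genes. Apart from the block, the 4 RPF calls after shEIF2B1 held under every alternative. The cause of these shifts was not tested. Depth is unknown, so which values low counts limit cannot be given.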
